A study of Homo sapiens with 9 samples.

Results

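Matrix metalloproteinases (MMPs) and their inhibitors were followed in 3 stable lines derived from NCI-H460, an established large cell lung cancer line from a pleural effusion. The 10 genes were taken by name: the collagenase MMP1, the gelatinases MMP2 and MMP9, the stromelysins MMP3 and MMP10, the membrane-type enzymes MMP14 and MMP15, and the tissue inhibitors TIMP1, TIMP2 and TIMP3. All 10 were found among the 19869 genes of the table for H460-ERT2-RUNX3-K94/171R cells. Of the 24331 genes in the table shared by H460-vec and H460-ERT2-RUNX3 cells, which lists locus identifiers without symbols, only 1 of the 10 could be identified, MMP1, through the identifier that the study's supplementary data pair with it. The other 9 genes were therefore not analysed here in those 2 lines.

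H460-vec cells carry the empty vector (the labels call this line H460, with inactivated RUNX3), H460-ERT2-RUNX3 cells carry an inserted wild-type RUNX3 fused to ERT2, and H460-ERT2-RUNX3-K94/171R cells carry the same fusion with Lys-94 and Lys-171 changed to Arg. ERT2, a modified hormone-binding region of estrogen receptor α, lets its fusion partner enter the nucleus only when 4-hydroxytamoxifen (4-OHT) is bound. All 3 lines came from stable transfection, share the oncogenic K-RAS of H460, and were used at passage 11. Whether a line was a single clone is not given in the sources used here. Cells were starved of serum for 24 h (the 0 h library) and then given 10% serum with 1 μM 4-OHT for 8 or 16 h. The question was which genes respond when RUNX3 is brought into the nucleus. Every line received 4-OHT together with serum, so within a line the 2 cannot be told apart, and H460-vec is the control for both. There was 1 library per line and time, 9 in all, so no difference below has a replicate check and no p-value was computed.

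MMPs are zinc-dependent endopeptidases that are made as inactive proenzymes and cleave collagens, laminins, fibronectin and other proteins of the extracellular matrix. TIMPs bind the active site of the mature enzymes and block it. Several MMP genes, MMP1 among them, are induced in cultured cells by growth factors and inflammatory cytokines, and AP-1 and ETS factors act at their promoters. RUNX factors bind DNA as heterodimers with CBFβ.

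Values are FPKM, fragments scaled by transcript length and by a factor for the library, which allows levels to be compared between genes within a library. How that factor was set is not given in the sources used here. The FPKM sums of the libraries ran from 554359 to 780952. A change is the log2 ratio of FPKM + 0.05 at 8 or 16 h to FPKM + 0.05 at 0 h of the same line, which understates the change of low genes, and a change of at least 2 in either direction was counted as past the threshold. Read totals are unknown. Steps between low values follow the library factor, and give relative depths only if that factor was set by the read total. On that condition relative depths were 0.964 to 1.17 within the shared table, with H460-vec at 0 h as 1. Within the K94/171R table they were 0.985 to 1.00, with its 0 h library as 1. Only ratios near 1 were searched, so a large difference in depth could not have appeared. The estimates rested on as few as 26 genes (K94/171R at 8 h), and on 42 for H460-ERT2-RUNX3 at 16 h. The H460-ERT2-RUNX3 library at 16 h stood apart. Across genes, which are not independent replicates, Pearson's r between libraries on the log2(FPKM + 0.05) scale was 0.939 to 0.963 in the 5 pairs that include it, 0.978 to 0.988 in the other 10 pairs of the shared table, and 0.989 to 0.991 in the 3 pairs of the K94/171R table. RUNX3 itself was listed at FPKM 2.12, 0.712 and 2.11 at 0, 8 and 16 h in K94/171R cells, places 10163, 11287 and 10225 of 19869. These low values do not separate message of the fusion from that of the cells' own gene. The identifier of RUNX3 in the shared table is not known. Message of neither fusion could therefore be checked. Of the 6 epithelial markers, KRT8, KRT18 and KRT19 were between FPKM 309 and 698 in K94/171R cells. KRT7 was at 3.01 to 4.88, whereas CDH1 stayed at or below 0.0227 and EPCAM at or below 0.313. The 8 markers of fibroblasts, cells that are a usual source of MMPs, summed to FPKM 7.77 to 11.3. Of this COL3A1 made up 5.60 to 8.26 and PDGFRB 1.91 to 3.20. COL1A1, COL1A2 and DCN stayed at or below 0.590, and FAP, LUM and THY1 were listed at 0 in all 3 libraries. The 6 leukocyte markers summed to FPKM 50.6 to 62.6, of which CD68 made up 47.2 to 56.9, CD14 3.16 to 5.62 and PTPRC at most 0.0155. LYZ, CSF1R and ITGAM stayed at or below 0.194. The 3 endothelial markers found summed to at most 0.0409. In the shared table PTPRC was at 0 in 4 libraries, at FPKM 0.0262 in H460-vec at 16 h and at 0.0761 in H460-ERT2-RUNX3 at 16 h.

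MMP1 (ENSG00000196611, chromosome 11 of hg19, 102660132 to 102668891, minus strand), the interstitial collagenase that opens the triple helix of fibrillar collagens, was near the bottom of the scale in 8 of the 9 libraries and among the most abundant messages in the ninth. In H460-ERT2-RUNX3 cells its FPKM was 0.127, 0.193 and 505 after 0, 8 and 16 h. In H460-vec cells it stood at FPKM 0.193, 0.246 and 0.133 at the same times. K94/171R cells had FPKM 0.0363 and 0.0354 and a value listed at 0 at 16 h. The whole increase lay between 8 and 16 h in the wild-type line, and without that 16 h library the 5 other values of the shared table spanned only 0.127 to 0.246.

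The log2 changes of MMP1 in H460-ERT2-RUNX3 cells were 0.46 at 8 h and 11.48 at 16 h. In H460-vec cells they were 0.29 and -0.41. For K94/171R cells they were -0.01 and -0.79. The change at 16 h in the wild-type line lay 11.88 above that in H460-vec on the log2 scale, and the 16 h level was 3791 times that of H460-vec. With a pseudocount of 1 the change at 16 h was 8.81, since the size of the ratio rests on a starting value of few reads. MMP1 was past the threshold at 16 h in H460-ERT2-RUNX3 cells, where 10.1% of all genes were, and at none of the other times or lines: the shares of all genes past it were 1.75% at 8 h in that line, 0.954% and 1.09% at 8 and 16 h in H460-vec, and 1.49% and 1.32% in K94/171R cells.

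**Figure D1:**
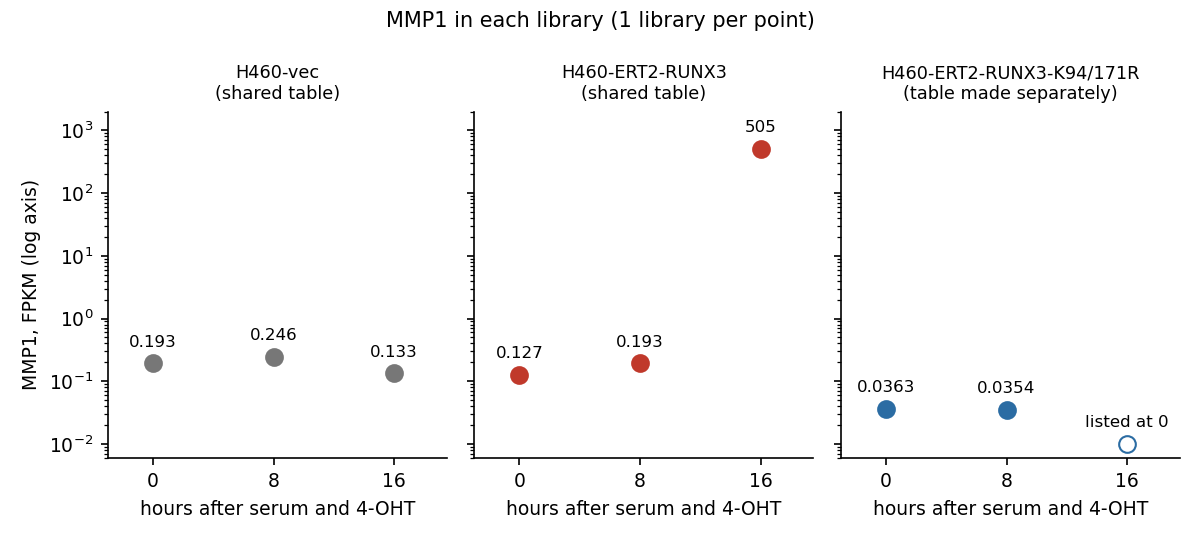
MMP1 in FPKM on a log axis against hours after serum and 4-OHT, 1 point per library and 1 panel per line, with an open point for a value listed at 0. The H460-ERT2-RUNX3 library at 16 h lies at 505 and the other 8 at or below 0.246. The K94/171R values come from a table made separately and their level is not comparable with the other panels.

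Set among all genes of its table, MMP1 moved from place 13647 of 24331 by FPKM at 0 h to place 206 at 16 h in H460-ERT2-RUNX3 cells. Its log2 change at 16 h was the fourth largest, place 4 of 24331. The 3 genes with larger changes are known here only by identifier, were listed at 0 at 0 h, and in H460-vec went between 0 and FPKM 221 to 667. Among the 13835 genes above 0 in all 6 libraries of the table, the change of MMP1 was the largest, place 1. MMP1 could be read here only because the study's supplementary data, drawn from these same data, name it. Whether it was named there for its change is not given in the sources used here. Its place is therefore a description and not independent support. A log2 change of at least 8 at 16 h was listed for 33 genes, of which 8 were above 0 in all 6 libraries. Late timing was common: of 867 genes with a change of at least 2 and FPKM of at least 1 at 16 h, 400 (46.1%) had, like MMP1, changed by less than 1 in either direction at 8 h and at both times in H460-vec.

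**Figure D2:**
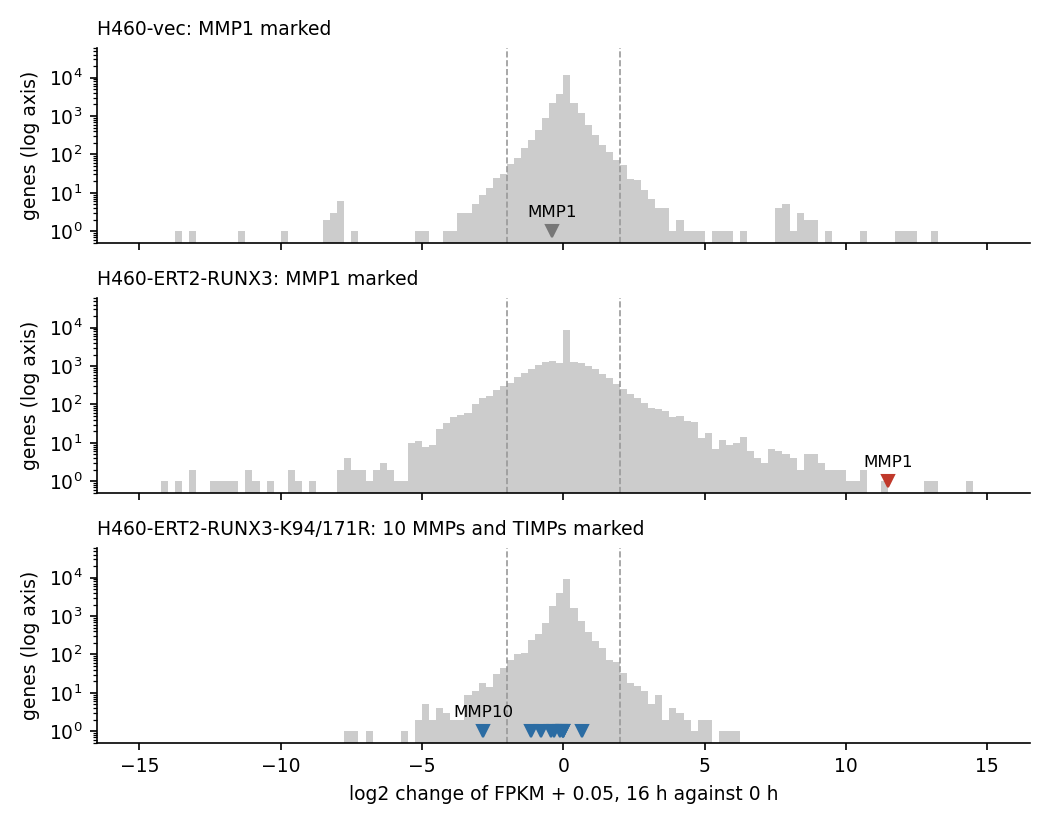
Number of genes (log axis) by log2 change of FPKM + 0.05 at 16 h against 0 h in H460-vec, H460-ERT2-RUNX3 and K94/171R cells, with dashed lines at -2 and 2 and triangles for the MMP and TIMP genes measured in each line. MMP1 lies at 11.48 at the far right of the wild-type line and at -0.41 in H460-vec, and of the 10 genes in K94/171R cells MMP10 alone lies outside the dashed lines, at -2.84.

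The genes whose course over the 6 libraries was most like that of MMP1 were ranked by the Euclidean distance between profiles of log2(FPKM + 0.05), each set to 0 in H460-vec at 0 h. Among genes with a symbol, nearly all of them on chromosome 1, IL24, a cytokine of the IL-10 family, was nearest (distance 2.27, place 4 among all genes). It stood at FPKM 0.0758, 0.0736 and 102 in H460-ERT2-RUNX3 cells and at 0 in every H460-vec library. CCDC30, which encodes a coiled-coil protein, came next (distance 3.78), with FPKM 0.0564, 0.125 and 21.3 in the wild-type line. SLAMF7, a receptor of immune cells, followed at distance 5.11, with FPKM 0.0443, 0.147 and 4.59. In K94/171R cells these 3 genes stayed at or below FPKM 0.0700. The 2 nearest identifiers without a symbol, XLOC_017363 and XLOC_013445, were listed at 0 in 5 libraries and at FPKM 62.4 and 51.1 in H460-ERT2-RUNX3 at 16 h. The likeness of all 5 to MMP1 comes from 1 high library and 5 low ones.

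The value of MMP1 in the shared table belongs to an identifier whose printed locus on hg19, chromosome 11, 102654407 to 102714342, is 59936 bases long and also overlaps MMP3 and WTAPP1. The identifier is paired with MMP1 alone, and in the same list 50 loci are printed for more than 1 identifier. Whether reads of MMP3 or WTAPP1 entered the FPKM of 505 was not tested. MMP1 and MMP10 lie wholly inside WTAPP1, a transcribed pseudogene on the opposite strand. In all, 8 of the 10 genes overlap an annotated gene on the other strand, TIMP1 inside SYN1 and TIMP3 inside SYN3 among them. The library kit keeps strand, but whether the counting used it is not given in the sources used here, so reads of a gene and of its antisense partner may not have been separated.

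MMP1 sits in a cluster of 9 MMP genes on chromosome 11 of hg19, 102391239 to 102826461, all on the minus strand. Its neighbours are the stromelysins MMP10 (102641233 to 102651359) and MMP3 (102706532 to 102714340), which cleave proteoglycans and laminin and can activate the MMP1 proenzyme. The whole cluster was barely expressed in K94/171R cells, with no value above FPKM 0.313, which was that of MMP7 at 8 h. MMP8, MMP13 and MMP27 were listed at 0 in all 3 libraries. MMP10 was listed at FPKM 0.309, 0.174 and 0 at 0, 8 and 16 h. MMP3 was listed at FPKM 0, 0.0356 and 0. The log2 change of MMP10 at 16 h was -2.84, the only one of the 20 changes of the 10 genes in this line past the threshold, which 1.49% of all genes passed at 8 h and 1.32% at 16 h. With a pseudocount of 1 it was -0.39, so this call depends on a level of few reads that ended at 0.

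**Figure D3:**
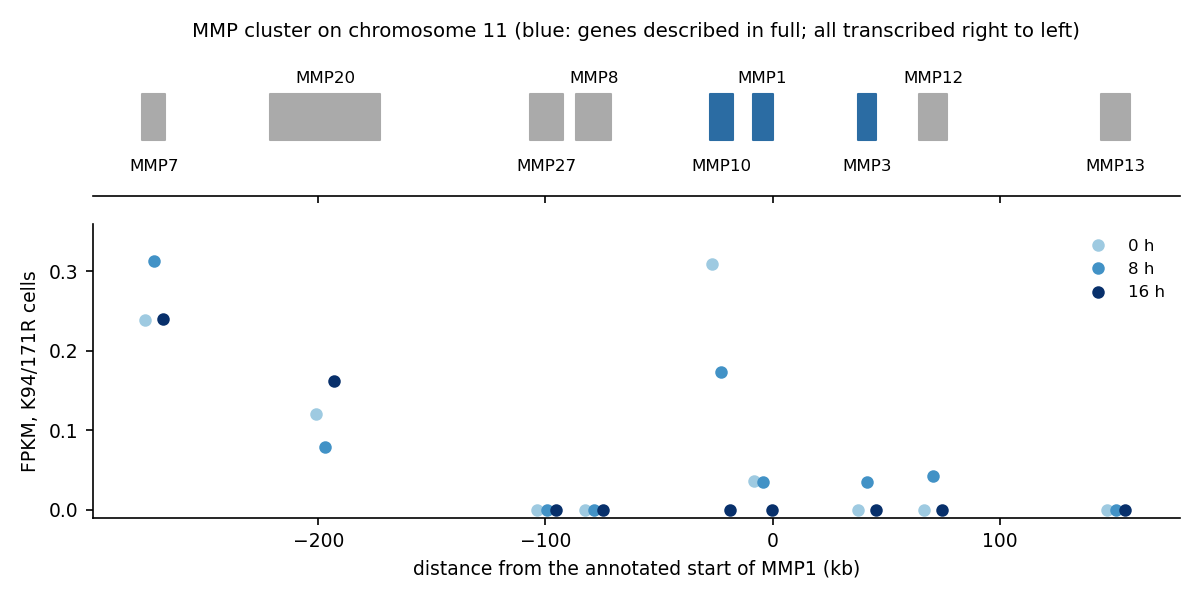
Upper panel, the 9 MMP genes of the chromosome 11 cluster by distance in kb from the annotated start of MMP1. Lower panel, their FPKM in K94/171R cells at 0, 8 and 16 h: MMP10, MMP7 and MMP20 are above 0.05 in at least 1 library, and the other 6 genes stay at or below 0.0422.

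The gelatinases cleave denatured collagen and the type IV collagen of basement membranes. MMP2 (chromosome 16, 55423612 to 55540603) was listed at FPKM 0.788, 0.711 and 0.574 at 0, 8 and 16 h in K94/171R cells, log2 changes of -0.14 and -0.42. MMP9 (chromosome 20, 44637547 to 44645200) was listed at 0 in all 3 libraries. Neither gelatinase reached FPKM 1.

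The membrane-type enzymes act at the cell surface, and MMP14 is the main activator of the MMP2 proenzyme. MMP14 (chromosome 14, 23305769 to 23318250) was listed at FPKM 0.167, 0.0239 and 0.0484 in K94/171R cells. These values stood in the ratio 7.01 to 1 to 2.03, and the log2 changes of -1.56 and -1.14 shrank to -0.19 and -0.16 with a pseudocount of 1. MMP15 (chromosome 16, 58059658 to 58080805) was listed at FPKM 8.95, 12.8 and 14.2. It was the only enzyme of the 7 above FPKM 1 and made up 87.3%, 92.9% and 95.8% of their summed FPKM at 0, 8 and 16 h. Its level was higher at both later times, with log2 changes of 0.52 and 0.67, and kept that direction when libraries were rescaled.

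Among the 10 genes, the inhibitors were far more abundant than the enzymes in K94/171R cells. TIMP1 (chromosome X, 47441807 to 47446188), a soluble inhibitor of most secreted MMPs and a weak one of MMP14, was listed at FPKM 739, 661 and 593 at 0, 8 and 16 h in K94/171R cells, places 141, 148 and 157 of 19869. It was lower at each later time, by log2 changes of -0.16 and -0.32. TIMP2 (chromosome 17, 76849059 to 76921469), which inhibits MMPs and also helps MMP14 to activate MMP2, was listed at FPKM 82.2, 73.9 and 76.5, log2 changes of -0.15 and -0.10. TIMP3 (chromosome 22, 33197691 to 33259028), which stays bound to the matrix and also blocks ADAM17, was listed at 0 throughout. In these cells the 3 inhibitors summed to FPKM 821, 735 and 669 and the 7 enzymes to 10.2, 13.8 and 14.8. Inhibitor message thus exceeded that of these 7 enzymes 80.1, 53.2 and 45.1 times. The sums leave out MMP11, MMP16, MMP17 and TIMP4, which also lay above FPKM 1. All changes of TIMP1, TIMP2 and MMP15 were below 1 on the log2 scale, and with 1 library per time none can be set against a spread.

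**Figure D4:**
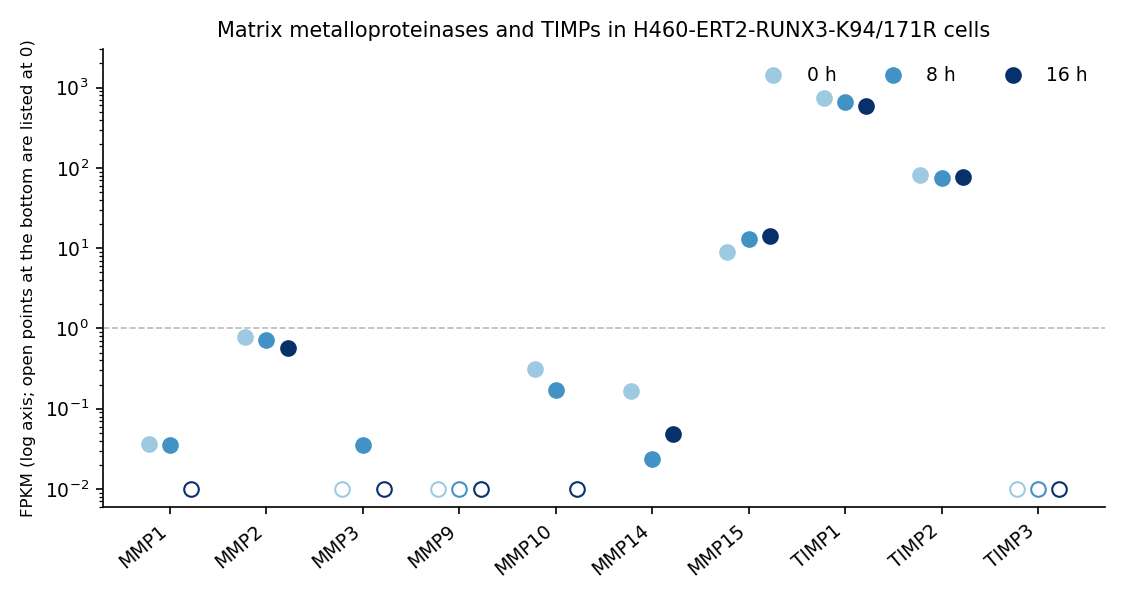
FPKM (log axis) of the 10 genes in K94/171R cells at 0, 8 and 16 h, with open points at the bottom for values listed at 0 and a dashed line at FPKM 1. TIMP1, TIMP2 and MMP15 lie above the line in all 3 libraries, in this order, and the other 7 genes lie below it.

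The order of levels in K94/171R cells was TIMP1, TIMP2, MMP15 in all 3 libraries, and the other 7 genes were below FPKM 1. At 16 h MMP2 and MMP14 were the only ones of these 7 above 0. No spread between replicates is known, so the values below FPKM 1 were not ranked. Those of MMP2 were 0.574 to 0.788. The others lay at or below 0.309 and rest on few reads. Over the 10 genes the median log2 change was -0.08 at 8 h and -0.21 at 16 h, against 0 and 0 over all 19869 genes. Over the 3 genes with FPKM of at least 1 it was -0.15 and -0.10, against 0.0060 and -0.011 over all genes at that level.

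Promoter sequence from RefSeq (build GRCh38.p14, 250 bases before to 50 after the start, written 5′ to 3′ on the strand of the gene) was found for 5 of the 10 genes: MMP10, MMP14, MMP15, TIMP1 and TIMP3. It was not found for MMP1, MMP2, MMP3, MMP9 and TIMP2. The 2 motifs searched were the RUNX core TGTGGT, on either strand, and the AP-1 site TGANTCA, which reads the same on both strands and does not overlap the RUNX core. The RUNX site that the paper deleted at ARF, GACCGCA, is not matched by TGTGGT on either strand and was not searched for. Variants of TGANTCA were not searched for either, such as TGAGTAA, which differs by 1 letter and stands in the TIMP1 sequence below. The RUNX core is in 13.1% of the 35116 promoters of this length and the AP-1 site in 7.71%. Of the 5 promoters, 2 hold the RUNX core (TIMP1, from position -71 counted from the start, and MMP14, from -177 on the opposite strand, read as ACCACA) and 1 holds the AP-1 site (MMP10, as TGAATCA from -67). MMP15 and TIMP3 hold neither. A match is a run of letters and not a bound site. These 3 promoters are shown because they hold the matches, which stand in capitals, in the most abundant gene of the set, TIMP1 (chrX:47582186-47582485, plus strand), in MMP14 (chr14:22836335-22836634, plus strand) and in the neighbour of MMP1, MMP10 (chr11:102780579-102780878, minus strand).
TIMP1: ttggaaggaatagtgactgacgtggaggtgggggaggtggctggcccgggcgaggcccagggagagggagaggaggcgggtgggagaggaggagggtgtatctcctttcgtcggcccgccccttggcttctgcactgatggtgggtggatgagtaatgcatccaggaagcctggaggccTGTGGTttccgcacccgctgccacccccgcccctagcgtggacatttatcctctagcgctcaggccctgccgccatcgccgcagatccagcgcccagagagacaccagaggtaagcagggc
MMP14: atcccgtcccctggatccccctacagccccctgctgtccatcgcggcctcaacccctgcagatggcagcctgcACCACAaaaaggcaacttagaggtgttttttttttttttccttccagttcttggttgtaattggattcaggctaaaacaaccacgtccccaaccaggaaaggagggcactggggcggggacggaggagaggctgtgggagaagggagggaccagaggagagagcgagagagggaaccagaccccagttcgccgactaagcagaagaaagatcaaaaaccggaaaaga
MMP10: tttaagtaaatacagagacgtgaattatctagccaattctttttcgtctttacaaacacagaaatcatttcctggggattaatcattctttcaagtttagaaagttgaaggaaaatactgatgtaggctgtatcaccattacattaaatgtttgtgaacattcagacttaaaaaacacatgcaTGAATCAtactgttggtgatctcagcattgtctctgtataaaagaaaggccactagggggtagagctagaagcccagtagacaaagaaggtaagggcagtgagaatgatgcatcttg
The 2 genes with a RUNX core differed widely in level in K94/171R cells. TIMP1 was at FPKM 593 to 739 and MMP14 at 0.0239 to 0.167, and neither passed the threshold.

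The other 16 MMP genes were mostly silent in K94/171R cells as well. MMP16, MMP17 and MMP11 reached FPKM 1, and 0 of the 16 passed the threshold at 8 or 16 h. In this line 1.49% and 1.32% of all genes passed it at these times, so 0 in a list this short lies near those shares. MMP17, an enzyme anchored to the membrane by glycosylphosphatidylinositol, was listed at FPKM 7.56, 10.6 and 14.9, log2 changes of 0.49 and 0.98, the same order over time as MMP15. MMP16, a further membrane-type enzyme, was listed at FPKM 3.55, 3.65 and 4.15. MMP11, stromelysin-3, was listed at FPKM 1.56, 1.41 and 1.86.

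Of 5 further regulators of MMPs, 0 passed the threshold at either time, beside 1.49% and 1.32% of all genes at 8 and 16 h. BSG, the surface protein that induces MMPs in neighbouring cells, was listed at FPKM 544, 522 and 595. TFPI2, a secreted protease inhibitor of the matrix, was listed at FPKM 175, 185 and 162. RECK, a membrane-anchored inhibitor of several MMPs, was listed at FPKM 4.65, 3.66 and 3.89.

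The plasminogen activator system, whose product plasmin can activate several MMP proenzymes, had 0 of 8 genes past the threshold. The shares of all genes past it were 1.49% at 8 h and 1.32% at 16 h. SERPINE2, an inhibitor of thrombin and of plasminogen activators, was listed at FPKM 948, 905 and 982. SERPINB2, the plasminogen activator inhibitor PAI-2, was listed at FPKM 90.8, 132 and 199, a log2 change of 1.13 at 16 h and the largest in the list. PLAUR, the urokinase receptor, was listed at FPKM 33.3, 39.4 and 46.8.

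Of 10 ADAM and ADAMTS proteases, relatives of the MMPs that shed surface proteins or cleave proteoglycans, 0 passed the threshold, and ADAM15 was the most abundant at FPKM 213, 210 and 243. Of 20 matrix substrates 0 passed it, and at 16 h the median log2 change of the list was 0.38, or 0.31 over the 15 genes with FPKM of at least 1. Fibronectin (FN1) was listed at FPKM 1245, 1068 and 1065 and the laminin chain LAMC1 at 240, 206 and 250. Of 12 transcription factors of the AP-1, ETS and RUNX families, whose binding at MMP1 was not tested, 0 passed the threshold. FOS, an immediate early AP-1 subunit, came nearest, with FPKM 45.4, 12.0 and 14.0 and log2 changes of -1.91 and -1.70. For each of these lists the count of 0 stands beside 1.49% of all genes at 8 h and 1.32% at 16 h.

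Only 18 matrix genes, all on chromosome 1, could be followed in all 3 lines beside MMP1. At 16 h in H460-ERT2-RUNX3 cells 0 of the 18 were past the threshold upward and 2 downward, against 0 in H460-vec and 0 in K94/171R cells. Over all genes 10.1%, 1.09% and 1.32% were past it in these lines, so the 2 of 18 lay near the share of all genes. The count was 5 of 18 when all libraries were given an equal FPKM sum. Over all 24331 genes 2797 were then past the threshold, a lower share than in the list. That rescaling put the median change of genes at FPKM 1 or more in H460-ERT2-RUNX3 cells at 16 h at -0.49. With a pseudocount of 1 the count was 1 of 18, beside 931 of all genes. OLFML3, a secreted olfactomedin-domain protein, was listed at FPKM 14.2, 7.54 and 0.726 at 0, 8 and 16 h in H460-ERT2-RUNX3 cells, a log2 change of -4.19 at 16 h. It was at FPKM 2.36, 1.57 and 1.87 in H460-vec and at 17.6, 17.5 and 13.9 in K94/171R cells. TGFB2, a growth factor that promotes matrix synthesis, was listed at FPKM 16.0, 6.28 and 3.58 in H460-ERT2-RUNX3 cells, a log2 change of -2.15, and at 11.9, 8.33 and 11.2 in H460-vec.

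The 3 genes of highest FPKM in this list were LAMC1, ADAM15 and PLOD1, and none reached the threshold, although each was lower at 16 h than at 0 h in the wild-type line. LAMC1 was listed at FPKM 189, 114 and 65.5 in H460-ERT2-RUNX3 cells and at 162, 142 and 174 in H460-vec. ADAM15 was listed at FPKM 120, 111 and 38.9 in H460-ERT2-RUNX3 cells and at 127, 149 and 182 in H460-vec. PLOD1, a lysyl hydroxylase of collagen, was listed at FPKM 44.7, 40.9 and 18.1 in H460-ERT2-RUNX3 cells and at 46.0, 58.6 and 67.1 in H460-vec. PAPPA2, a metalloproteinase that cleaves insulin-like growth factor binding proteins, went the other way, with FPKM 7.61, 11.4 and 18.7 (log2 change of 1.29 at 16 h) against 1.98, 1.26 and 1.47 in H460-vec. DDR2, a collagen receptor, had a log2 change of 1.32 in the wild-type line at levels below FPKM 1. Over all 18 genes the median log2 change at 16 h was -0.17 in H460-ERT2-RUNX3, 0.50 in H460-vec and 0.02 in K94/171R cells, against 0 over all genes in each line. The median log2 change at 16 h over the genes of the list with FPKM of at least 1 was -1.30 in H460-ERT2-RUNX3 (11 genes), 0.47 in H460-vec (11 genes) and 0.05 in K94/171R (10 genes). Over all genes at that level the medians were -0.0011, 0.020 and -0.011. MMP23B, the only further MMP gene that could be read in the shared table, was at or below FPKM 0.0587 in its 6 libraries.

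**Figure D5:**
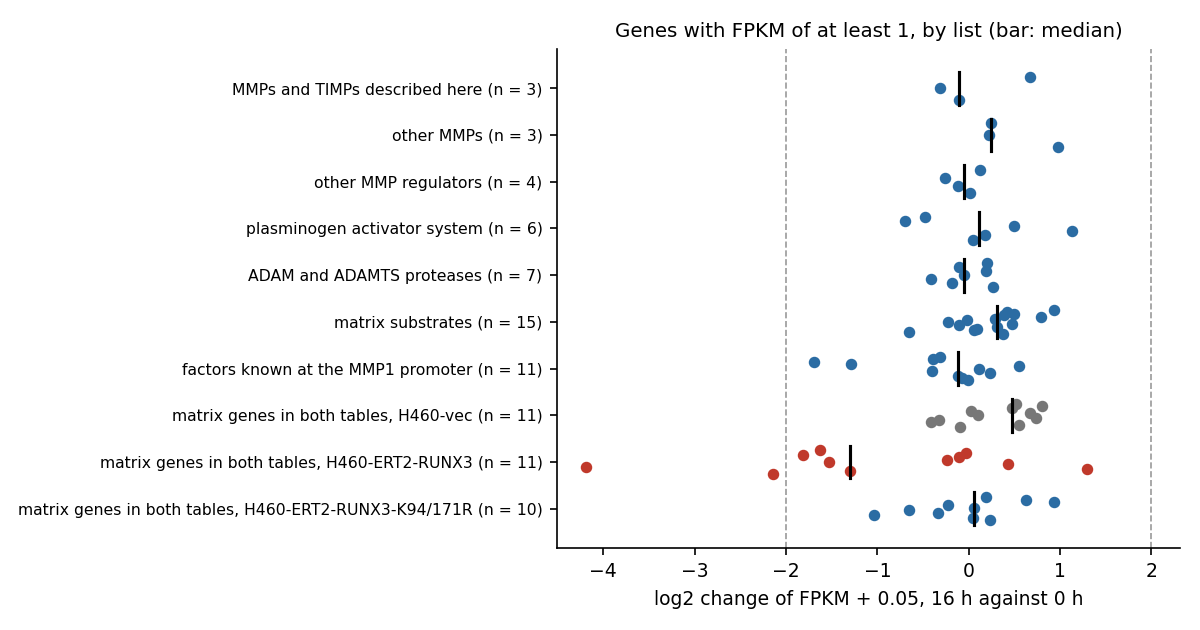
Log2 change of FPKM + 0.05 at 16 h against 0 h for genes with FPKM of at least 1, 1 row per gene list and 1 point per gene, with the median as a black bar, dashed lines at -2 and 2, and K94/171R cells in blue, H460-vec in grey and H460-ERT2-RUNX3 in red. In K94/171R cells all points lie between the dashed lines. In H460-ERT2-RUNX3 cells OLFML3 (-4.19) and TGFB2 (-2.15) lie beyond the left one. The row labelled as factors known at the MMP1 promoter holds AP-1, ETS and RUNX genes, whose binding there was not tested.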

How the data were processed

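RNA-seq was measured in 9 libraries, 1 for each of 3 H460 lines at 3 times. Per the labels and the study's methods, the authors ran Cutadapt on the reads, aligned to hg19 using STAR 2.5.0, and used Cufflinks and Cuffdiff 2.2.1; the gene annotation, the filters and the use of strand in counting are not given in the sources used here. The authors deposited FPKM per gene in 2 tables made separately, so changes were taken only within a table. For K94/171R cells, 19494 of 19869 Ensembl identifiers matched a symbol, and for the other lines 1145 of 24331 identifiers did, by the symbols paired in the study's supplementary data. Coordinates are hg19, from GENCODE v44lift37, unless RefSeq is named.

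Changes used a pseudocount of 0.05 and a threshold of 2 (log2), in Python 3.11.15 with pandas 2.3.3. A check on simulated data planted large changes in well-expressed genes only, so it does not bear on genes of low FPKM. With 1 library per line and time, no replicate spread was available for a change within a line or its difference between lines, and no test was run. FPKM keeps no read counts, so no counting interval was computed. The alternatives were pseudocounts of 1 and 0.01, a threshold of 1, a minimum FPKM of 1, and 2 rescalings of libraries. A value was taken as moved when it crossed the threshold or shifted by 1.5 times or more (0.58 on the log2 scale), and a count when it differed by more than 1.5 times.

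The text names the 10 genes, list genes past the threshold with FPKM of at least 1, at most the 3 most abundant genes of a list, and the genes most like MMP1. Marker genes, PAPPA2, DDR2, MMP23B and the other MMPs of the chromosome 11 cluster were named outside this rule, after their values were seen. The genes and lists were chosen with earlier results of these data known. No value was taken from the supplementary data.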

Additional observations from a re-analysis of the deposited data

Results flagged for a closer look

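MMP1 changed in opposite directions in the lines at 16 h, with 1 library each, so the difference was not tested. Its log2 change was 11.48 in H460-ERT2-RUNX3 cells and -0.41 in H460-vec cells, a difference of 11.88. In K94/171R cells, whose table was made separately, it was -0.79, and the difference from H460-ERT2-RUNX3 cells was 12.26. The values of H460-vec and K94/171R cells lie at FPKM 0.246 or below, where few reads set the direction.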

How the results depend on the processing

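No paired analysis was possible because each group has 1 library and no test was run, and for the same reason no library could be left out within a group. Of 103 alternative values for the 24 changes of MMP and TIMP genes, 93 kept their side of the threshold and moved by less than 1.5 times, 10 moved and 0 changed sign after being past the threshold. All 10 came from another pseudocount. The change of MMP1 at 16 h in H460-ERT2-RUNX3 cells was 8.81 with a pseudocount of 1 and 11.03 to 11.85 otherwise, always past the threshold.

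In K94/171R cells, genes of the 10 past the threshold numbered 0 at 8 h and 1 at 16 h. A pseudocount of 0.01 gave 2 and 2, and a threshold of 1 gave 1 and 2. At 16 h, a pseudocount of 1 and the minimum FPKM of 1 gave 0. Over all genes, counts past the threshold at 8 and 16 h were 232 and 266 in H460-vec, 426 and 2468 in H460-ERT2-RUNX3 and 296 and 262 in K94/171R cells. In the same order, a pseudocount of 1 gave 54 and 48, 111 and 931, and 20 and 17. A pseudocount of 0.01 gave 1084 and 1157, 1417 and 3784, and 1021 and 996. A threshold of 1 gave 1233 and 1457, 2308 and 7111, and 1452 and 1285. The minimum FPKM of 1 gave 69 and 84 in H460-vec, 188 in H460-ERT2-RUNX3 at 8 h, and 69 and 58 in K94/171R cells. Rescaling to the same FPKM sum moved the share of upward calls in H460-ERT2-RUNX3 at 16 h from 49.6% to 30.5%. Low FPKM limits what can be said of 7 of the 10 genes.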
